A study of Mus musculus with 2 samples.

Results

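The genes examined here encode subunits and assembly factors of respiratory complex I, the NADH:ubiquinone oxidoreductase of the inner mitochondrial membrane, and were taken as every gene whose name on the array starts with Nduf. There were 42 such genes, read by 57 probes, among 35018 gene names on the array. They were compared between skeletal muscle of a mouse model of cancer cachexia and its control. The C26 array carried total RNA from muscle of male CD2F1/Slc mice, 11 weeks old, given 1000000 colon 26 carcinoma cells under the skin of the flank. The Control array carried RNA from muscle of male CD2F1/Slc mice of the same age, given the same volume of phosphate-buffered saline (PBS). The labels do not name the muscle, the days between implantation and sampling, the weight lost, or whether RNA of several animals was pooled.

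Complex I takes electrons from NADH, passes them along a chain of iron-sulfur clusters to ubiquinone, and pumps protons across the inner membrane as it does so. It is shaped like an L, with one arm in the matrix that holds the NADH module and the ubiquinone module, and one arm in the membrane that holds the proton pumps. The catalytic core is conserved from bacteria, part of it encoded by mitochondrial DNA and part by nuclear genes. Accessory subunits surround the core, and assembly factors help to build the enzyme but are not part of the finished complex. Muscle fibres draw most of their sustained ATP supply from this chain, and oxidative fibres hold more of it than glycolytic ones.

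Each group was 1 array, so no test between groups was possible, no p-value is given, and a difference between the arrays has no replicate check. The values are processed fluorescence signals of the scanner software. A level is the log2 signal minus the 75th percentile of its array, and a log2 ratio is the C26 level minus the Control level of the brightest probe of a gene. The 75th percentile was 7.96 on the C26 array and 8.04 on the Control array, so a gene of equal level has a slightly lower raw signal in C26. The only errors at hand are technical. The software's own error of a ratio was 0.20 for 41 of the 42 genes and 0.21 for the dimmest, Ndufab1. Being nearly identical across the Nduf genes, this error acted as a common cutoff and says little about the spread of any single gene. Probes printed in at least 8 copies, 273 of them, gave ratios of single spots an SD of 0.09. A probe's signal also depends on its sequence, so signals show how well each gene was measured and are not compared between genes. In bulk muscle, fewer cells of a type and less RNA per cell cannot be told apart.

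Of the 59305 spots on each array that are not controls, 53.8% in C26 and 50.4% in Control stood well above background by the scanner software's flag. A gene was called measured where its brightest probe did so on both arrays, which held for 19767 genes. All 42 Nduf genes were measured, none was saturated, and none rested on an outlier spot. In 34 of them both signals were over 10000. The 10 skeletal muscle markers were all measured, with a median log2 ratio of 0.04. They ran from -0.60 for Casq1 to 0.36 for Des, with 7 above 0.

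The Nduf genes as a group were slightly lower on the C26 array. Their median log2 ratio was -0.05 (SD over genes 0.14, n = 42 genes), against 0.04 over all measured genes, and 33 of 42 lay below 0, where 43.6% of all measured genes did. The other 9 lay above 0, against 56.4% of measured genes. No Nduf gene reached 1.5-fold in either direction, while 4.82% of measured genes were at least 1.5-fold lower and 4.36% at least 1.5-fold higher. At 2-fold the shares of measured genes were 1.16% lower and 1.24% higher. At 1.2-fold, 2 Nduf genes were lower, Ndufa4l2 and Ndufab1, against 15.9% of measured genes, and 1 was higher, Ndufa7, against 20.6%. The value of Ndufab1 came from a dim probe, and a far brighter probe described as Ndufab1 gave -0.14. The ratio exceeded the scanner error in 4 of 42 genes, Ndufa4l2, Ndufab1, Ndufa7 and Ndufa8, whereas it did so in 44.2% of measured genes. These shares were not matched on signal. Most Nduf genes are bright, and ratios of other genes spread more where dim. Their SD was 0.45 under a mean signal of 100 and 0.29 from 10000 up.

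**Figure D1:**
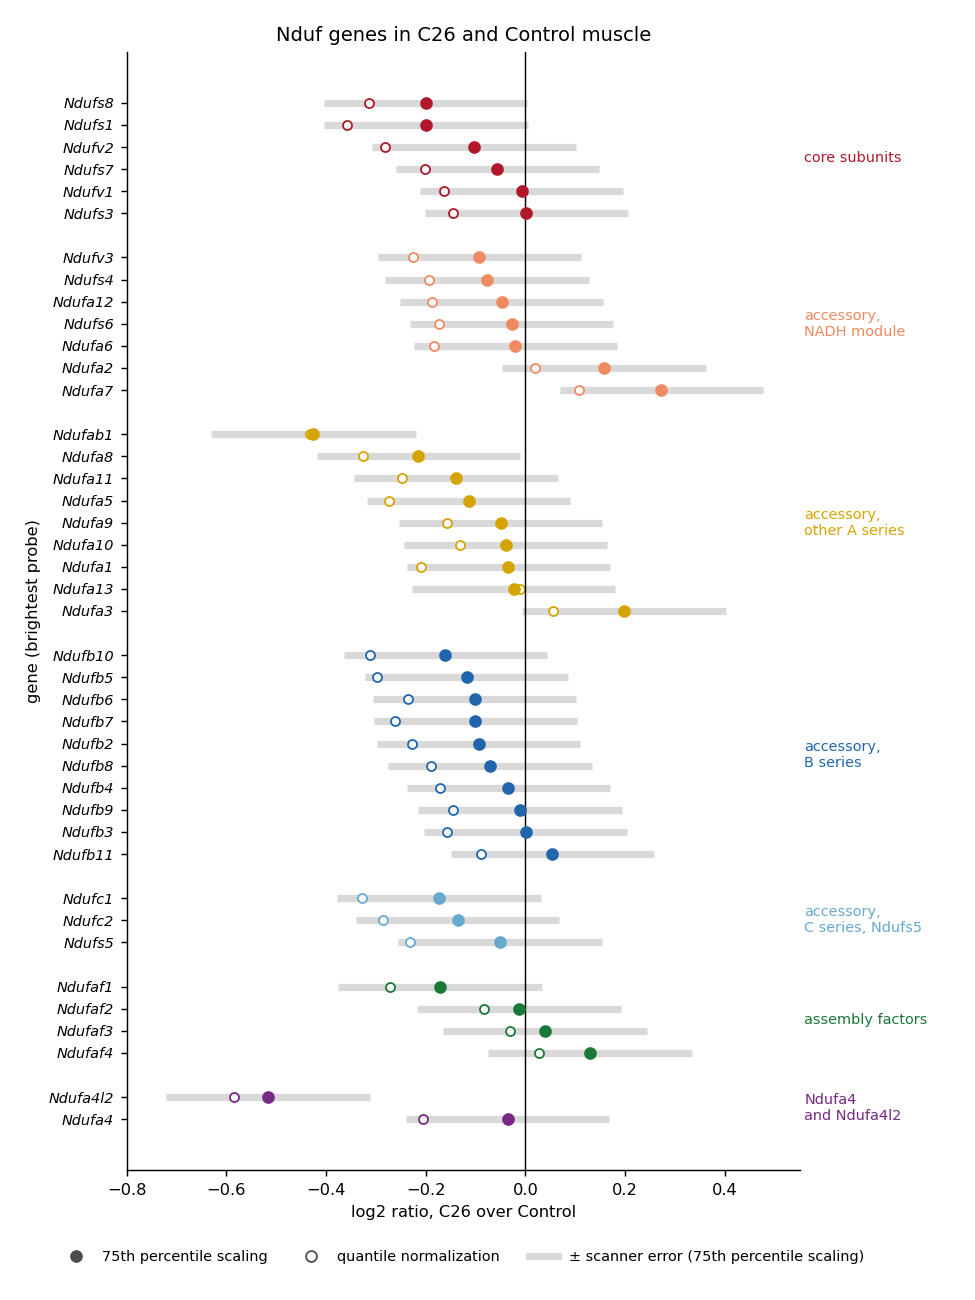
Log2 ratio (x axis, C26 over Control) of 41 of the Nduf genes, one row per gene, grouped by role and sorted within it. Filled points are 75th percentile scaling, open points quantile normalization and grey bars the scanner error of the filled points. Most filled points lie just left of 0 with bars that cross it, Ndufa4l2 and Ndufab1 stand at -0.52 and -0.43, and Ndufa7 at 0.27. The point of Ndufab1 is that of a dim probe. The open points lie left of the filled ones for every gene but Ndufa13.

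The size of the group's shift depended on how the arrays were scaled. With quantile normalization, which gives both arrays the same distribution of signals, the median of the 42 genes was -0.20, against -0.00 over all measured genes. By that scaling 38 of 42 lay below 0, against 50.5% of measured genes, and 4 lay above it, against 49.4%. At least 1.2-fold lower were 12, against 18.4% of measured genes, and none was 1.2-fold higher, against 15.9%. None was at least 1.5-fold lower, against 5.33%, and none 1.5-fold higher, against 3.84%. At 2-fold the shares of measured genes were then 1.25% lower and 1.12% higher. The ratio then exceeded the scanner error in 20 of 42, against 42.1% of measured genes. Quantile normalization moved 41 genes down and 1 up, Ndufa13, with a median shift of -0.14. Across the main scaling and its alternatives, 33 genes lay below 0 under every processing and 3 above it, Ndufa2, Ndufa3 and Ndufa7. The sign of the other 6 depended on the processing, Ndufs3, Ndufb3, Ndufb11, Ndufaf3 and Ndufaf4 among them. Not all alternatives were separate checks of sign. Changes of the filter left every Nduf ratio as it was. Median scaling and the percentile over probes above background lowered all ratios by a constant. The authors' deposited values nearly repeated quantile normalization.

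Most Nduf probes are bright, and bright genes in general had higher ratios on the C26 array. Among genes with a mean signal of at least 10000, the 35 Nduf genes had a median log2 ratio of -0.05 (SD 0.10), and the 1834 other genes had 0.15 (SD 0.29). In that range 28 of the 35 Nduf genes, or 80.0%, lay below 0, against 28.7% of the others. The difference between the medians was -0.20, and it ran from -0.20 to -0.22 over all the processings tried, including quantile normalization and loess on the signal. A scaling that subtracts a constant per array, or a change of the filter on dim probes, cannot alter this gap. Of the processings that could, normexp gave -0.20, loess -0.21 and the mean over probes -0.20. Quantile normalization gave -0.22, as did the authors' deposited values, which nearly repeat it. The distance of the Nduf genes from 0 depended on the scaling. The genes of this range were not matched on signal. These are descriptions of 2 arrays, and many gene groups of that brightness were not compared.

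**Figure D2:**
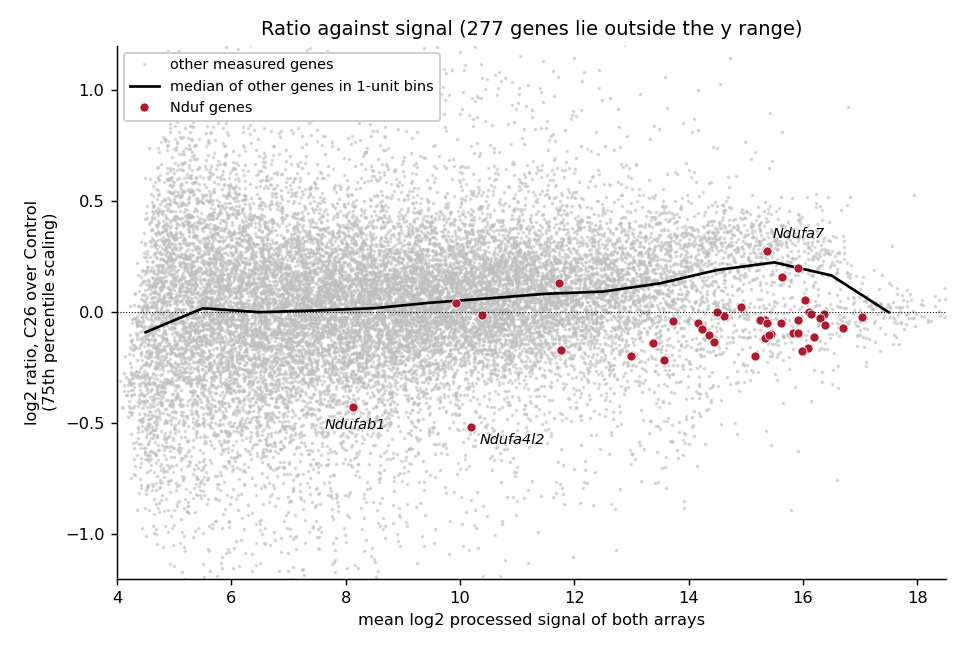
Log2 ratio (y axis, C26 over Control, 75th percentile scaling) against the mean log2 processed signal of both arrays (x axis) for the 42 Nduf genes (red) and the other measured genes (grey), with the median of the other genes in bins 1 unit wide (black line). The black line climbs above 0 at high signals, and most red points in that range lie below it. Genes beyond the y range are counted in the title.

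**Figure D3:**
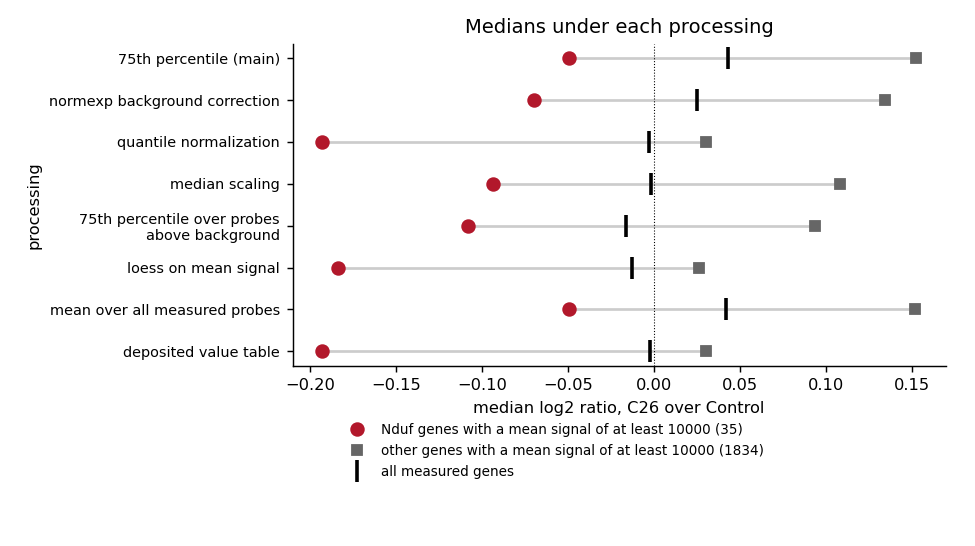
Median log2 ratio (x axis, C26 over Control) under each processing (rows), for the 35 Nduf genes (red circles) and the 1834 other genes (grey squares) with a mean signal of at least 10000, and for all measured genes (black ticks). The red circles run from -0.05 to -0.19, and the distance from circle to square stays between 0.20 and 0.22.

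Control regions of these genes are known to share binding motifs for factors that drive nuclear genes of the respiratory chain, among them NRF1, ETS family factors, YY1 and the oestrogen-related receptors (ERR). Promoter sequences from RefSeq (mouse build GRCm38.p6) were matched by symbol for 37 of the 42 genes, in 39 windows, and the 250 bases before each start were searched on both strands. A gene was counted where any of its windows held the motif, because the windows of 1 gene can overlap, as those of Ndufa5 do over a single NRF1 site. The NRF1 motif, taken as GCGC, an A, any base and GCGC again, lay before 7 of 37 Nduf genes (18.9%), against 4.23% of 27025 genes searched the same way. The ETS motif, CCGGAAG, lay before 4 (10.8% against 7.83%), the YY1 motif, AANATGGCG, before 2 (5.41% against 1.29%), and the ERR motif, AAGGTCA, before 3 (8.11% against 4.70%). By window, none of the 4 motifs was present in 24 of 39 (61.5%), against 85.4% of 32851 windows over all genes. The median GC content was 58.0% in the Nduf windows, against 52.4% in all windows, and its part in the motif counts was not tested. The 7 genes with an NRF1 motif had a median log2 ratio of -0.05, and so did the 30 without one. For the ETS motif the medians were -0.10 over 4 genes with it and -0.05 over 33 without. For the YY1 motif they were 0.16 over 2 genes with it, Ndufa7 and Ndufb11, and -0.06 over 35 without. For the ERR motif they were -0.05 both over the 3 genes with it and over the 34 without. A match is a description of letters, not of binding.

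The windows of 4 genes with an NRF1 motif are printed to show how the motif lies, 1 from each group of accessory subunits described below, with motif letters in capitals and every window on the minus strand, 5′ to 3′ towards the start. Ndufb4 (chr16:37654369-37654618) held 3 NRF1 motifs and 1 ERR motif. Ndufs6 (chr13:73328483-73328732) and Ndufa8 (chr2:36049339-36049588) held 1 NRF1 motif each, and Ndufs5 (chr4:123718187-123718436) held 1 NRF1 motif and 1 ERR motif.
Ndufb4: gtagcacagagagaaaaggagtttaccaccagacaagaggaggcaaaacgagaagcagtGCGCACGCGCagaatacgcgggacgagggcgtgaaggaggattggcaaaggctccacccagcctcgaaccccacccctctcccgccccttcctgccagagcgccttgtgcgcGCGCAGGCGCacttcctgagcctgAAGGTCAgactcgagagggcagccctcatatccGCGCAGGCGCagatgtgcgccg
Ndufs6: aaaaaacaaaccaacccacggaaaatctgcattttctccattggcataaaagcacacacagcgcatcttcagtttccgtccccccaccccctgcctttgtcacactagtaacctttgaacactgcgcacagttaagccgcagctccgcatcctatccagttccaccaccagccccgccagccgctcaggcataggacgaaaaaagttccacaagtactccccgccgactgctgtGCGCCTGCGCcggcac
Ndufa8: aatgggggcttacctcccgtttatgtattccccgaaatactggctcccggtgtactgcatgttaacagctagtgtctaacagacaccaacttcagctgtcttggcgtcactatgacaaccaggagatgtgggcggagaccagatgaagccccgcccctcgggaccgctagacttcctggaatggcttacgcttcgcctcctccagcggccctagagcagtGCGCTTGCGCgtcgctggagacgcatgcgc
Ndufs5: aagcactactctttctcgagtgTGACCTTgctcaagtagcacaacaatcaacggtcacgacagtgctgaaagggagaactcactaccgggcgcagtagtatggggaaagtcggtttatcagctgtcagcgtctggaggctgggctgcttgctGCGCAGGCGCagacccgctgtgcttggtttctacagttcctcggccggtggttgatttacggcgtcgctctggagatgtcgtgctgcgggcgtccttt
Their log2 ratios were -0.03 for Ndufb4, -0.03 for Ndufs6, -0.21 for Ndufa8 and -0.05 for Ndufs5. Whether the number of motif copies bears on the ratio was not tested.

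The 7 nuclear core subunits had a median log2 ratio of -0.06, with the lowest at -0.20. Below 0 lay 5 of the 7, against 43.6% of measured genes. Under quantile normalization all 7 lay below 0, against 50.5% of measured genes, with a median of -0.20, and 3 were at least 1.2-fold lower, against 18.4%. Ndufs1, the largest subunit of the NADH module and a carrier of several iron-sulfur clusters, had a signal of 33428 on the C26 array and 40359 on the Control array. Its scaled levels were 7.07 and 7.27, its log2 ratio was -0.20 (-0.36 with quantile normalization), and it was thus 1.15-fold lower in C26, just inside its error. Ndufs8, which holds iron-sulfur clusters on the path to ubiquinone, was as low. It had signals of 7448 in C26 and 8997 in Control and a log2 ratio of -0.20. No other core subunit was so low in the main scaling.

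Ndufv1 binds NADH and the flavin that takes its electrons, and its 2 arrays were almost level. Its signal was 70553 in C26 and 74573 in Control, and the log2 ratio was -0.01. Its partner Ndufv2, which carries an iron-sulfur cluster, had 40846 in C26 and 46139 in Control, with a log2 ratio of -0.10. Apart from Ndufs8, the ubiquinone module was nearer to 0. Ndufs3, a scaffold of that module, had 68793 in C26 and 72267 in Control (0.00). Ndufs7, which carries the last iron-sulfur cluster before ubiquinone, had 81671 in C26 and 89320 in Control (-0.06) and was among the 3 brightest of all. Within the NADH module the ratios of Ndufs1 and Ndufv1 lay apart by less than the scanner error of 0.20.

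Accessory subunits on or near the NADH module, 7 genes, had a median of -0.03, with 5 below 0, against 43.6% of measured genes. These 7 subunits held 2 of the 3 genes that stayed above 0 in every processing. Ndufa7 had the highest ratio of all 42 genes. Its signal was 45565 in C26 and 39661 in Control, its levels were 7.51 and 7.24, and its log2 ratio of 0.27 was 1.21-fold (0.11 with quantile normalization, which is within the error). Ndufa2, a small subunit with a thioredoxin-like fold, had 52324 in C26 and 49334 in Control and a log2 ratio of 0.16. The other 5 lay between -0.09 and -0.02. These were Ndufv3, Ndufs4, Ndufa12, Ndufs6 and Ndufa6. Loss of Ndufs4 in mice causes a fatal encephalopathy that models Leigh syndrome, and its signals here were 18266 in C26 and 20267 in Control (-0.08).

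The other accessory subunits of the A series, 9 genes, had a median of -0.05 and the widest spread of the larger groups (SD 0.17). Of these 9, 8 lay below 0, against 43.6% of measured genes. Ndufab1, the mitochondrial acyl carrier protein, which also serves fatty acid synthesis and the making of iron-sulfur clusters, was the lowest complex I subunit. Its signal was 237 in C26 and 335 in Control, its levels were -0.08 and 0.35, and its log2 ratio was -0.43 (error 0.21), 1.34-fold lower in C26. This probe was the dimmest of the brightest probes of all 42 genes. A far brighter probe, whose file entry carries the description of Ndufab1 but a transcript identifier in place of the symbol, had 48833 in C26 and 56612 in Control, and a log2 ratio of -0.14 (error 0.20). The low value of Ndufab1 thus rested on its dim probe, and the wide spread of this group includes that value.

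Ndufa8, a subunit on the intermembrane side of the membrane arm, had 10957 in C26 and 13372 in Control, a log2 ratio of -0.21 that was just past its error. Ndufa3, a small membrane subunit, was the only gene of its group above 0, with 64471 in C26 and 59111 in Control (0.20). Ndufa13, a membrane subunit also known for a part in cell death, was the brightest of all, with 130205 in C26 and 139185 in Control, and lay at -0.02. The remaining 5 of the group, Ndufa1, Ndufa5, Ndufa9, Ndufa10 and Ndufa11, ran from -0.14 to -0.03. With quantile normalization 3 of the 9 were at least 1.2-fold lower, against 18.4% of measured genes.

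The B series, 10 accessory subunits of the membrane arm, was the most even of the larger groups. Its median was -0.08 and its SD over genes 0.06, and 8 of 10 lay below 0, against 43.6% of measured genes. The lowest was Ndufb10, with 64544 in C26 and 75879 in Control (-0.16), and the highest was Ndufb11, an X-linked subunit, with 66518 in C26 and 67375 in Control (0.05). Ndufb8, whose protein is widely used as a gauge of assembled complex I, had 101637 in C26 and 112290 in Control (-0.07). With quantile normalization all 10 lay below 0, from -0.31 to -0.09, against 50.5% of measured genes. By that scaling 2 were at least 1.2-fold lower, Ndufb10 and Ndufb5, against 18.4% of measured genes. The spread of this group was smaller than the SD of 0.09 between ratios of copied spots, so its order says little.

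Ndufc1, Ndufc2 and Ndufs5, which lie in the membrane arm, had a median of -0.14 and were all below 0, against 43.6% of measured genes. Ndufc1 had 59554 in C26 and 70637 in Control (-0.17), and Ndufc2 had 20811 in C26 and 24045 in Control (-0.14). Ndufs5 had 40839 in C26 and 44485 in Control (-0.05). With quantile normalization the 3 ran from -0.33 to -0.23.

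The 4 assembly factors under Nduf names had a median of 0.01 and lay on both sides of 0. Ndufaf1, which works with Ecsit, Acad9 and Tmem126b in building the membrane arm, had 3201 in C26 and 3790 in Control (-0.17). Ndufaf2, a relative of the subunit Ndufa12, had 1302 in C26 and 1382 in Control (-0.01). Both partners that act on the ubiquinone module lay above 0 in the main scaling: Ndufaf3 had 962 in C26 and 984 in Control (0.04), and Ndufaf4 had 3482 in C26 and 3348 in Control (0.13). Neither was past its error, and Ndufaf3 turned to -0.03 with quantile normalization.

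Ndufa4 was first described in complex I and is now placed with cytochrome c oxidase, complex IV. It had 37658 in C26 and 40587 in Control (-0.04). Its paralog Ndufa4l2, which is induced by hypoxia in several cell types, had the lowest ratio of the 42 genes. Its signal was 960 in C26 and 1444 in Control, its levels were 1.94 and 2.46, and its log2 ratio was -0.52 (error 0.20), which is 1.43-fold lower in C26 and -0.58 with quantile normalization. It was among the 3 dimmest genes, with Ndufab1 and Ndufaf3. Without these 2 paralogs the median of the other 40 genes was -0.05, with 31 below 0, against 43.6% of measured genes.

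Several probes read 10 of the genes, and in 9 of these at least 2 probes had signals over 1000 on both arrays. Ratios of such probes of 1 gene differed by 0.00 to 0.27, with a median difference of 0.03, well under the scanner error of 0.20. The bright probes of Ndufb2, Ndufb4 and Ndufb11 overlap in sequence, so their small differences are not checks by separate probes. The exception was Ndufaf4, whose brighter probe gave 0.13 and whose other probe, at 2478 in C26 and 2875 in Control, gave -0.14, so its direction is not settled. The sign also differed between probes of Ndufa3 and Ndufb5. The odd probe of Ndufa3 was dim, with 32.6 in C26 and 39.6 in Control (-0.21), while its bright probes gave 0.20 and 0.23. For Ndufb5 the bright probes gave -0.12 and -0.20, and 2 dim probes, with signals under 40, gave -0.49 and 0.24.

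**Figure D4:**
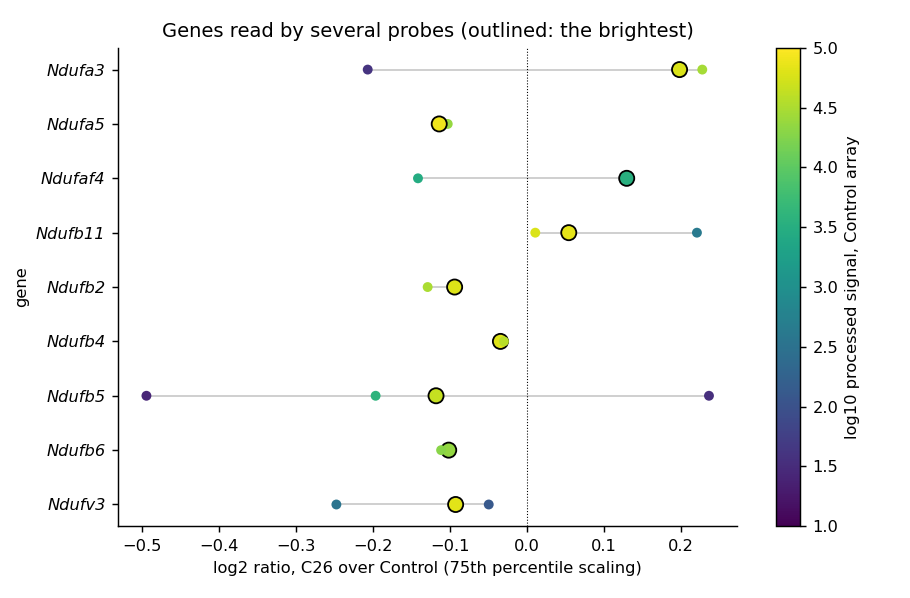
Log2 ratio (x axis, C26 over Control, 75th percentile scaling) of each probe of 9 genes read by several probes (rows), coloured by the log10 processed signal on the Control array, with the brightest probe of each gene outlined. Bright probes of a gene lie close together except for Ndufaf4, and the far points of Ndufa3 and Ndufb5 are dim probes.

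The sequences of 3 probes whose ends lie more than their own length apart on build mm9, and which therefore cross an exon junction, are shown because they match spliced RNA along their whole length. They are 60 bases long, lie on the minus strand, and are printed 5′ to 3′. The probes of Ndufa10 (chr1:94361039-94363996), Ndufb6 (chr4:40219858-40224715) and Ndufb8 (chr19:44624855-44627199) are the brightest of their genes.
Ndufa10: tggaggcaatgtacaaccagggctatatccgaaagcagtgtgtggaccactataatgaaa
Ndufb6: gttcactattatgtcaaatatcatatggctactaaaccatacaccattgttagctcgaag
Ndufb8: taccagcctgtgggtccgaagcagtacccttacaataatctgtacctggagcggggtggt
Their log2 ratios were -0.04 for Ndufa10, -0.10 for Ndufb6 and -0.07 for Ndufb8. For Ndufb6 the second probe, whose bases are contiguous on the genome, gave -0.11.

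Some complex I genes stand on the array under other names and were not counted among the 42. The assembly factor Ndufaf7, a methyltransferase, had 1538 in C26 and 1947 in Control (-0.27, error 0.20). Ndufaf6 (-0.02) and Ndufaf5 (-0.03, brightest probe) lay near 0. Ndufaf8, with dim signals of 529 in C26 and 515 in Control, lay at 0.11. The probe matched to Ndufb1 is described on the array as a predicted gene with a partial miscellaneous RNA. Its signals were a dim 334 in C26 and 326 in Control, and its log2 ratio was 0.11. Of the other assembly factors of complex I, 15 genes were measured, with a median of -0.06. Below 0 lay 11 of the 15, against 43.6% of all measured genes. The lowest was Tmem126a, with 4229 in C26 and 5523 in Control (-0.31), and the highest was Timmdc1, with 5409 in C26 and 4677 in Control (0.28). Factors on both sides of 0 thus occurred under other names as under Nduf names.

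The 7 complex I subunits encoded by mitochondrial DNA had a median log2 ratio of 0.01, against -0.05 for genes under Nduf names. Below 0 lay 3 of the 7, against 43.6% of measured genes. ND1 was the lowest, with 31038 in C26 and 39110 in Control (-0.26). ND6, which lies on the other strand of mitochondrial DNA from the rest, was the highest, with dim signals of 275 in C26 and 226 in Control (0.35). The other 5 lay between -0.08 and 0.01. With quantile normalization the median of the 7 was -0.14, with 5 below 0, against 50.5% of measured genes.

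Low ratios of this size were not confined to complex I. The 46 measured genes of complexes II to V had a median of -0.09, with 35 below 0, against 43.6% of all measured genes. The medians were -0.15 over 4 genes of complex II, -0.11 over 9 of complex III, -0.02 over 16 of complex IV and -0.11 over 17 of complex V. With quantile normalization they were -0.28 for complex II, -0.27 for complex III, -0.14 for complex IV and -0.26 for complex V, and 41 of the 46 genes lay below 0, against 50.5% of measured genes. No gene of these 4 complexes reached 1.5-fold in either direction, against 4.82% of measured genes lower and 4.36% higher in the main scaling. Whether the complexes differ from one another was not tested.

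**Figure D5:**
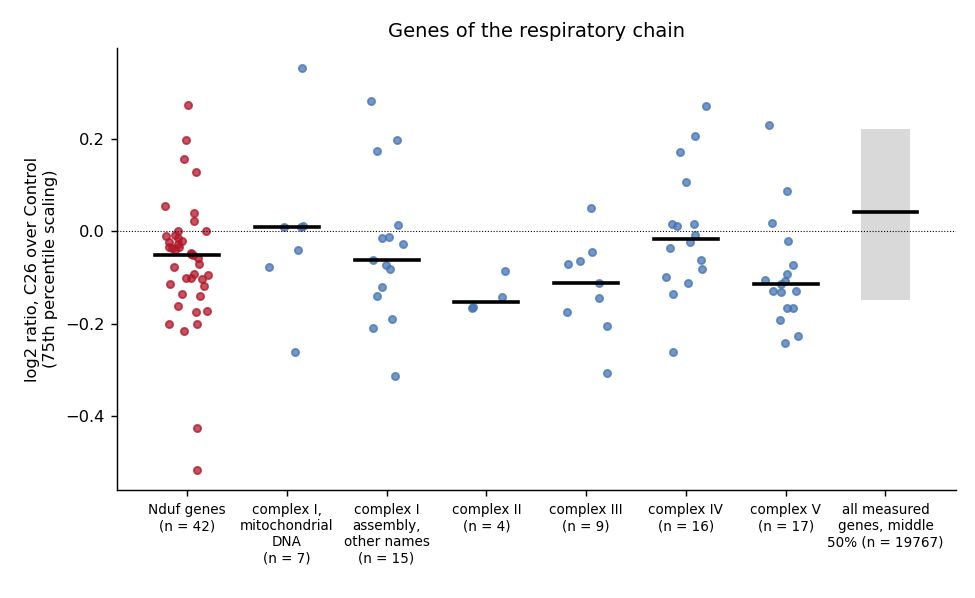
Log2 ratio (y axis, C26 over Control, 75th percentile scaling) of each gene (points) of the respiratory chain lists, with the median of each list (bars) and, at the right, the middle 50% of all measured genes (grey box). The Nduf genes, with a median of -0.05, lie within the range of the other lists apart from Ndufa4l2 and Ndufab1.

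Among 13 regulators of mitochondrial genes the median was 0.07, with 5 below 0, against 43.6% of measured genes. Ppargc1a, a coactivator that drives genes of oxidative metabolism, had 3199 in C26 and 2812 in Control (0.26, error 0.20). Its relative Ppargc1b had a dim 151 in C26 and 282 in Control (-0.82), and was the only one of the 13 past 1.5-fold. Esrra, the oestrogen-related receptor alpha, had 11009 in C26 and 13892 in Control (-0.26). Nrf1, the factor of the motif counted above, had 424 in C26 and 360.0 in Control (0.31). The regulators thus lay on both sides of 0, and their part in the Nduf values was not tested.

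Markers of fibre and cell types also differed between the arrays, and some of these values depended on the scaling. The summed signals given here are unscaled, so they can differ in direction from the scaled medians. The brightest probes also carry most of some sums. In C26, Dcn had 81772 of the fibroblast sum and Hba-a1 had 231932 of the erythroid sum. All 6 slow and oxidative fibre markers were higher in C26, with a median of 0.21 and summed signals of 328338 in C26 and 301072 in Control. With quantile normalization their median was 0.10 and 5 of 6 were higher, with Myl2 at -0.11. The 5 fast fibre markers had a median of 0.05 (0.00 with quantile normalization), with sums of 1153020 in C26 and 1199430 in Control. The 5 fibroblast markers were all lower in C26, with a median of -0.92 and sums of 93253 in C26 and 149124 in Control, and the 5 macrophage markers too, with a median of -0.34 and sums of 4560 in C26 and 6433 in Control. All 5 endothelial markers were higher, with a median of 0.52 and sums of 13370 in C26 and 10862 in Control, but with quantile normalization Kdr and Cdh5 lay at -0.08 and -0.01 and the median was 0.50. The 3 measured erythroid markers had a median of 2.31, with sums of 239527 in C26 and 95822 in Control. Of 5 adipocyte markers 3 were higher, with a median of 0.31 and sums of 33404 in C26 and 26768 in Control. Of the 5 epithelial and carcinoma markers, 3 were measured, with a median of 0.11. Lgals4 had 532 in C26 and 375 in Control (0.58), Krt18 lay at 0.11 and Cdh1 at -0.02, while Epcam and Krt8 were not well above background. Of the 3 brown adipocyte markers only Cidea was measured, with 452 in C26 and 258 in Control (0.88), and Ucp1 and Elovl3 were not well above background. The part of fibre type and of other cells in the Nduf ratios was not tested.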

How the data were processed

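Total RNA of skeletal muscle was labelled with Cy3 and hybridised to Agilent one-colour arrays, per the labels' protocols. The deposited scanner files hold the processed signal intensity of each spot as the authors' Feature Extraction software wrote it, after background subtraction, per the file headers. The file headers give version 10.7.1.1, while the submitters' processing notes name 9.5.1.1. The authors also deposited a value table with unstated normalization, which holds intensities that are not on the log2 scale. Their log2 lay within 0.01 of the log2 of quantile-normalized processed signals for 99.9% of probes on both arrays, with no offset fitted. The median intensity was 19.75 in each column. Probe coordinates are on mm9, per the file headers.

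Control and outlier spots were left out, spots of a probe were averaged, and the log2 signal minus the array's 75th percentile gave the level. The brightest probe stood for a gene. Probes numbered 55680, of which 27235 were given a current symbol by accession and 3581 by symbol, from RefSeq. Alternatives were normexp (limma 3.58.1, R 4.3.3, offset 50), quantile, median and loess (span 0.3) scaling, other filters, the mean over probes and the value table. Scaling steps were tested on simulated data. Genes named are the core subunits, the assembly factors, the 5 highest and lowest ratios, the 3 brightest and dimmest genes, Ndufa4, Ndufa4l2, Ndufab1 and genes whose probes differ in sign, while others are given by range, with examples. Of the 42 genes, 1 is counted in the summaries and is not reported here by name. Members and lists were chosen with earlier results of these data known. The number of arrays, 1 per group, limits the precision.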

Additional observations from a re-analysis of the deposited data

How the results depend on the processing

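Without replicates no result has a test, and the dependence on processing is that of values alone. No paired analysis was possible because each group holds 1 array and the labels carry no replicate numbers. The median log2 ratio of the 42 Nduf genes moved to -0.20 with quantile normalization, -0.18 with loess on the mean signal and -0.20 in the authors' deposited value table. It stayed between -0.11 and -0.05 with normexp, median scaling, the percentile over probes above background, both changes of the filter, the mean over probes, and, as choices made after seeing the data, without Ndufa4 and Ndufa4l2 or with signals over 10000 only. The count below 0 ran from 33 to 38 of 42 under the alternatives that kept all genes. The count at 1.5-fold was 0 in both directions under all of these, and in the main scaling it stayed 0 at 2-fold and was 2 lower and 1 higher at 1.2-fold. With quantile normalization the counts at 1.2-fold were 12 lower and 0 higher. Of 8 medians over groups of genes, 6 moved by more than the SD of copied spots under quantile normalization, loess and the value table, while none did under the other 6 alternatives. The cause was not tested. Signals under 1000 on both arrays, in 2 genes, limit what Ndufab1 and Ndufaf3 can show.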
